A study of Mus musculus with 4 samples.

Results

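The genes described here encode the proteins of the cytosolic ribosome. They were taken by name from the deposited table: rows named Rps or Rpl followed by a number, with the suffixes of the standard paralogues, plus Rpsa, Rplp0, Rplp1 and Rplp2, without pseudogene names and without the S6 kinases. This gave 86 of 17391 genes, of which 35 belong to the small and 51 to the large subunit. Expression had been measured by Drop-seq, in which single cells are caught in droplets with barcoded beads, in primary Gli1+ kidney cells of male mice aged 12 weeks. All cultures spent 2 h without serum. A control, labelled 0 h, was then harvested without TGF-β, and the other cultures received 1 ng/ml TGF-β for 6, 12 or 24 h. Gli1 labels perivascular mesenchymal cells that can become myofibroblasts, the matrix-producing cells of fibrosis, and TGF-β is the cytokine that drives this step. There was 1 library per time point and no untreated culture at 6, 12 or 24 h, so time in TGF-β and time in serum-free medium cannot be told apart. No difference has a replicate check, and the intervals given are 95% intervals that cover counting error only.

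A ribosome holds about equal numbers of each of its proteins, one copy of nearly every one. The small subunit reads the messenger RNA, the large subunit joins the amino acids, and the stalk of the large subunit recruits the translation factors. The mRNAs of these proteins are short, abundant and stable, and most begin with a run of pyrimidines at the transcription start (the terminal oligopyrimidine, or TOP, element), through which mTOR and LARP1 control their translation and stability. In fibroblasts that turn to matrix production, protein synthesis is a main load on the cell.

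The library labelled 0 h stood apart and went against its label, and it is called by that label throughout. It held 192 barcodes and 106826 counts, of which Malat1, a nuclear RNA, made up 32.2%, against 0.947% to 1.24% in the treated libraries. The 10 proximal tubule markers summed to 15511.2 CPM there (CPM being counts scaled to the same total in every library) and to at most 2.57 CPM in the treated libraries. The 11 mesenchymal markers in the table summed to 131.1 CPM at 0 h and to 3767.4, 9104.3 and 11188.5 CPM at 6, 12 and 24 h. Of these 11 markers, 4 had a count at 0 h, 9 at 6 h and all 11 at 12 h and 24 h. The other nephron markers (loop, distal tubule and collecting duct) came to 3594.6 CPM at 0 h and at most 1.28 CPM later, those of endothelium to 299.6 and at most 8.09 CPM, of podocytes to 196.6 and at most 3.08 CPM, and of macrophages to 103.0 and at most 7.70 CPM. Gli1 had no row in the table used here. The treated libraries held 658, 1120 and 1328 barcodes and 778793, 5687966 and 6166324 counts in time order. No barcode sequence was shared between libraries. Median counts per barcode were 489.5, 313.5, 3815.5 and 3379, so the 6 h library was shallow.

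Ribosomal protein genes took a large share of the counts at 6 h and 24 h, a smaller share at 12 h, and almost none in the library labelled 0 h. Their share was 15.7% at 6 h (122189 counts, interval 15.6 to 15.8), 11.1% at 12 h (632814 counts, 11.1 to 11.2) and 15.5% at 24 h (957437 counts, 15.5 to 15.6). In the library labelled 0 h it was 0.355% (379 counts, 0.320 to 0.392), and 9 of the 86 members had no count. From 6 h to 12 h the family was 1.41-fold lower (interval 1.40 to 1.42), and from 12 h to 24 h it was 1.40-fold higher (1.39 to 1.40). The 24 h value stood at 0.990 times the 6 h value (0.984 to 0.996). Among barcodes with 1000 or more counts this last ratio was 1.07 (1.06 to 1.07), so its direction depended on the barcodes used, while the lower value at 12 h was present in both.

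Both subunits followed this course. The small subunit made up 6.79%, 4.97% and 6.68% of counts at 6, 12 and 24 h, and the large subunit 8.90%, 6.15% and 8.84%. At 12 h the small subunit stood at 0.733 times its 6 h share (0.726 to 0.740) and the large subunit at 0.691 times (0.685 to 0.697). The ratio of large to small subunit counts was 1.31 at 6 h (1.30 to 1.33), 1.24 at 12 h (1.23 to 1.24) and 1.32 at 24 h (1.32 to 1.33). In summed counts, which the most abundant genes weigh most, the large subunit was thus lowest relative to the small subunit at 12 h, by more than counting error. Gene by gene the subunits lay close, with a median log2 ratio of 12 h over 6 h of -0.51 over 32 small and -0.52 over 47 large subunit genes. For 24 h over 12 h these medians were 0.50 and 0.61. In the library labelled 0 h the ratio was 1.61, with an interval of 1.31 to 2.00 that rests on 234 and 145 counts.

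Gene by gene, 79 of the 86 members reached 100 CPM in at least 1 treated library, 32 of the small and 47 of the large subunit. Of these, 71 were lower at 12 h than at 6 h, and for 69 the 12 h value was the lowest of the treated libraries. The share of all genes lower by any amount was not counted. At a difference of 1.5-fold or more, 36 members were lower at 12 h than at 6 h and 0 were higher. Over all 2256 genes at this level, 10.9% were lower and 18.1% higher. With equal weight per barcode in place of summed counts, 59 members were lower, and the share of all genes was not counted. In that setting the median log2 ratio was -0.84 over the 79 members and 0.31 over 6379 genes with a mean of 20 CPM or more. The 36 were 14 of 32 small subunit and 22 of 47 large subunit genes. At 2-fold, 12 members were lower, against 4.88% of all genes. The median log2 ratio of CPM, 12 h over 6 h, was -0.52 over the 79 members. It was 0.19 over 6379 genes with a mean of 20 CPM or more in the treated libraries. The quartiles were -0.84 and -0.31 for the members and -0.15 and 0.57 for the 6379 genes.

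**Figure D1:**
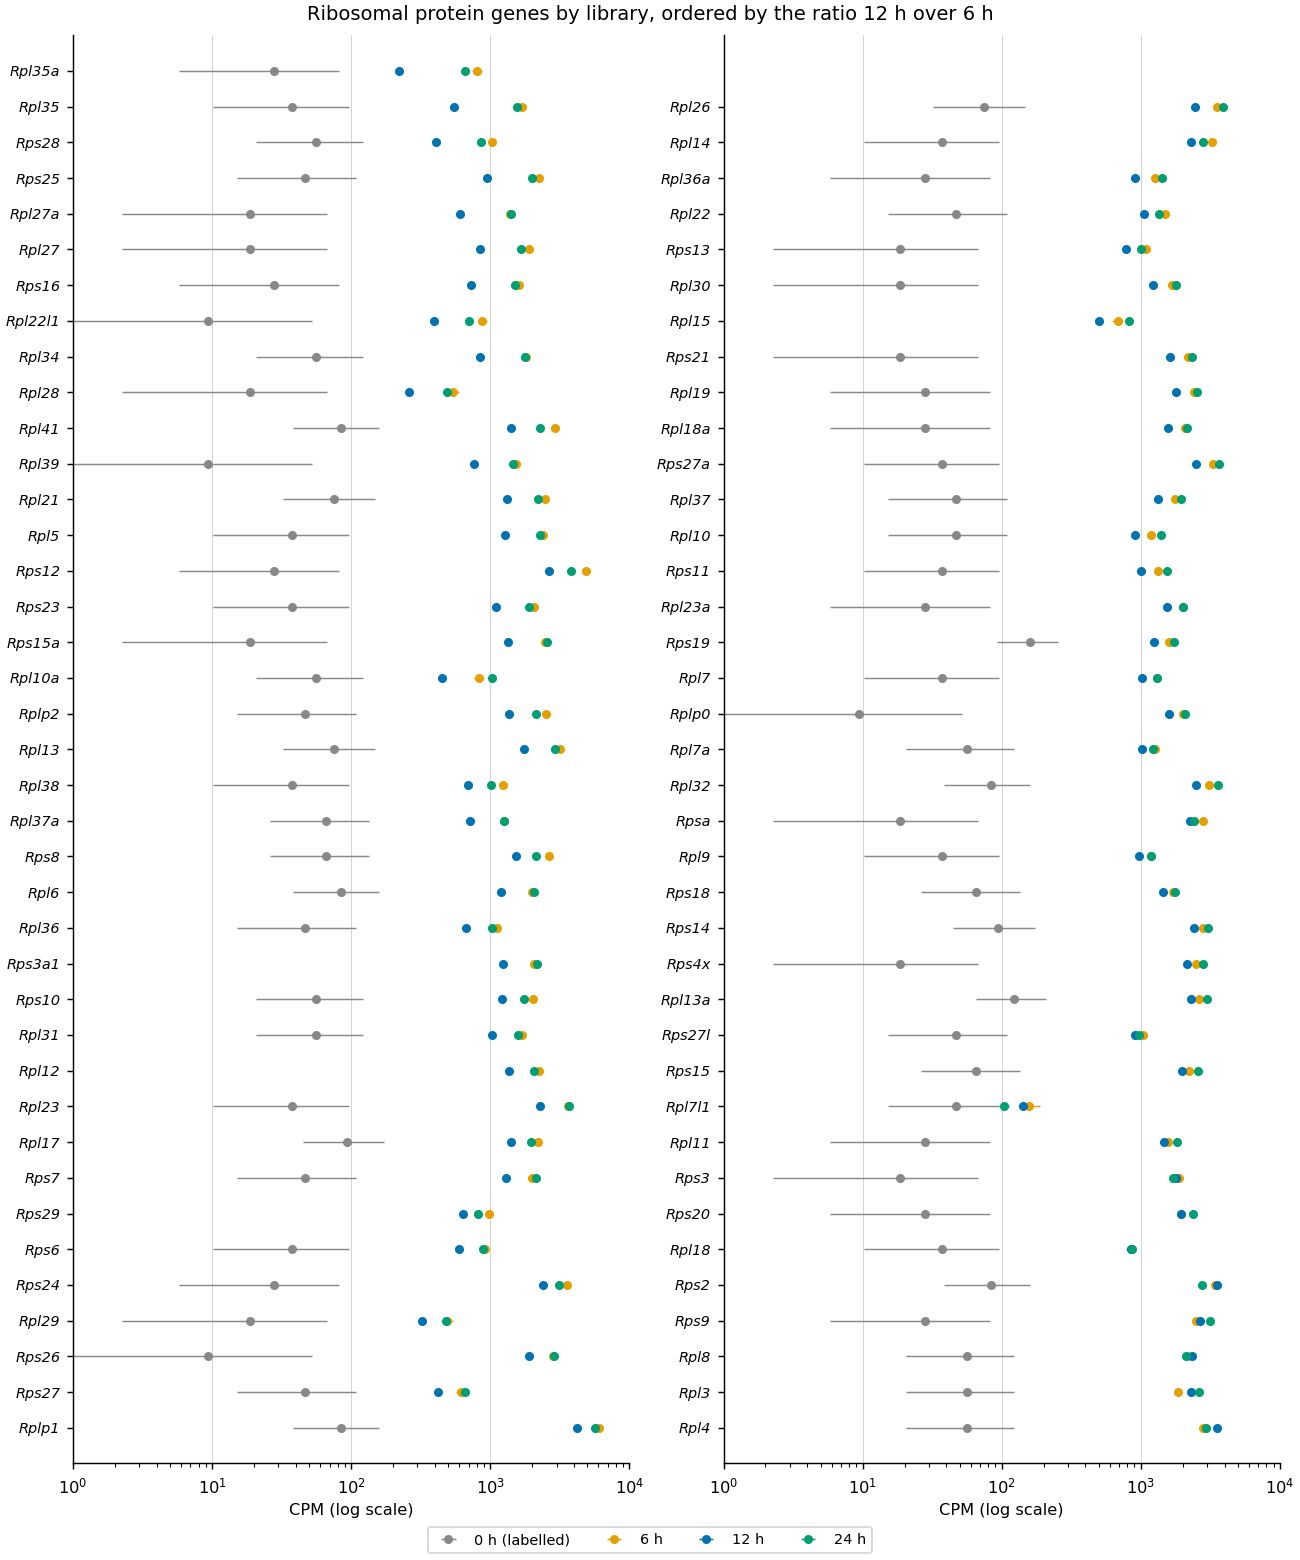
CPM on a log axis of 77 of the 79 ribosomal protein genes at 100 CPM or more, ordered from the lowest to the highest ratio of 12 h over 6 h (left column, then right column). Points are single libraries, bars are 95% Poisson intervals (counting error only), and a missing grey point means no count in the library labelled 0 h. The 12 h point lies left of the 6 h and 24 h points for most genes in the left column, and at the end of the right column, from Rps2 to Rpl4, it lies at or right of the 6 h point, an order that for Rps2, Rps9 and Rpl8 turns with DESeq2 size factors.

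From 12 h to 24 h, 35 members were higher by 1.5-fold or more, 11 small and 24 large subunit genes, and 0 were lower. Over all 2146 genes tested, 4.85% were higher and 4.38% lower. At 2-fold 8 members were higher, against 1.63% of all genes. At 24 h against 6 h only Rpl7l1 was lower by this measure and 0 members were higher, where 12.8% of all 2166 genes were lower and 15.5% higher. With equal weight per barcode 5 members were lower, and among barcodes with 1000 or more counts 0, with no share of all genes counted in either setting. A dip was defined as a value at 12 h at least 1.5-fold below both 6 h and 24 h. It was found in 28 of the 79 members, 35.4%, and in 3.16% of all 2313 genes, or 45 of 2234 genes outside the family. With DESeq2 size factors the dip was found in 43 members, and the share of all genes was not counted under that scaling. The 28 comprised 8 small subunit genes (among them Rps3a1, Rps7, Rps15a, Rps16, Rps23, Rps25 and Rps28) and 20 large subunit genes (Rpl5, Rpl6, Rpl10a, Rpl12, Rpl13, Rpl21, Rpl22l1, Rpl23, Rpl27, Rpl27a, Rpl28, Rpl31, Rpl34, Rpl35, Rpl35a, Rpl36, Rpl37a, Rpl39, Rpl41 and Rplp2). At 2-fold the dip was left in 7 members, Rpl27a, Rpl34, Rpl35, Rpl35a, Rps16, Rps25 and Rps28, and in 1.51% of all genes. No member had the opposite course, a 1.5-fold peak at 12 h, which was also rare over all genes (1.51%). The steps from 6 h to 12 h and from 12 h to 24 h share the 12 h library, so they are not independent of each other.

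Rpl35a, a large subunit protein whose mutations cause Diamond-Blackfan anemia, differed most. It had 805.1, 222.6 and 661.2 CPM at 6, 12 and 24 h, with 3 counts at 0 h. It was 3.62-fold lower at 12 h than at 6 h (3.28 to 3.98) and 2.97-fold higher at 24 h than at 12 h (2.79 to 3.17). Rpl35, which sits near the exit of the tunnel for the new peptide, had 1696.2, 545.7 and 1568.7 CPM and was 3.11-fold lower at 12 h (2.91 to 3.32). Rps28, a protein of the small subunit near the messenger RNA exit, had 1036.2, 410.0 and 852.9 CPM and was 2.53-fold lower (2.33 to 2.74). In these 3 genes the 12 h library was low and the other treated libraries lay closer to each other, with the 24 h value at 0.821, 0.925 and 0.823 times the 6 h value.

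Rps25, which some viral and cellular messages need for internal initiation, had 2262.5, 946.9 and 1999.7 CPM at 6, 12 and 24 h. Rps16, whose tail reaches the peptidyl-tRNA site, had 1614.0, 723.1 and 1517.6 CPM. Both small subunit genes were again lowest at 12 h, 2.39-fold (2.26 to 2.52) and 2.23-fold (2.09 to 2.38) below 6 h. The large subunit genes Rpl27a, Rpl27, Rpl34 and Rpl28 lay in the same range. Rpl27a had 1397.0, 603.6 and 1417.1 CPM, and Rpl27 had 1913.2, 841.2 and 1671.2 CPM. Rpl34 had 1795.1, 844.8 and 1775.9 CPM, and Rpl28 had 538.0, 259.1 and 492.5 CPM. For Rpl27a and Rpl34 the interval of the ratio of 24 h to 6 h included 1 (0.952 to 1.08 and 0.936 to 1.05).

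At the other end stood, among others, Rpl4, Rpl3, Rpl8, Rps9 and Rps2, core proteins of both subunits. Rpl4, which lines the peptide tunnel, had 2792.8, 3510.9 and 2963.7 CPM at 6, 12 and 24 h, so its 12 h value was the highest, 1.26 times that at 6 h (1.20 to 1.31). Rpl3, which reaches the peptidyl transferase centre, had 1842.6, 2293.3 and 2637.1 CPM, higher at each later time point, and was the member with the highest ratio of 24 h over 6 h, 1.43 (1.36 to 1.51). Rpl8, also at the peptidyl transferase centre, had 2154.6, 2320.3 and 2112.4 CPM, nearly level. In the small subunit, Rps9 and Rps2, which lie at the messenger RNA entry, had 2497.5, 2672.3 and 3140.9 CPM and 3406.6, 3508.5 and 2766.5 CPM. The 12 h over 6 h ratio of Rps2, 1.03, had an interval that included 1 (0.989 to 1.07). These ratios depend on the scaling, since the median gene itself was 0.19 higher (log2) at 12 h. With DESeq2 size factors, under which the median gene differed by 0.02, Rpl4 and Rpl3 stayed above 1, at 1.12 and 1.10, and Rpl8, Rps9 and Rps2 came to 0.955, 0.949 and 0.914.

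The start sites of the 3 lowest and the 3 highest members by 12 h over 6 h with a RefSeq entry are shown because the TOP element, the shared regulatory feature of the family, lies there. Rpl3 and Rpl8 had no entry. Each line gives 30 bases, 5′ to 3′ on the gene's strand, from the RefSeq table of GRCm38.p6, the build called mm10, with the longest run of C and T within 50 bases of the annotated start in capitals.
Rpl35a: cggggcttgCCTTCCTCTTTCCgccatctt
Rpl35: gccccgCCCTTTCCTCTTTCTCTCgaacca
Rps28: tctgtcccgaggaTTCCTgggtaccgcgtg
Rpl4: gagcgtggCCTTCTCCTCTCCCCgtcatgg
Rps9: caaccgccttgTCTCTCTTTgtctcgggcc
Rps2: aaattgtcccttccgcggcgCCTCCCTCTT
They lie at chr16:33056468-33056497 (plus strand), chr2:39005115-39005144 (minus), chr17:33824567-33824596 (minus), chr9:64173405-64173434 (plus), chr7:3704024-3704053 (plus) and chr17:24720083-24720112 (plus). Counted from the annotated start, the run began at base 24, -7, -21, 26, -6 and 40 in the same order, so it lay after the start, across it or just before it. The runs were 13, 18 and 5 bases long in Rpl35a, Rpl35 and Rps28 and 15, 9 and 10 bases in Rpl4, Rps9 and Rps2, so long runs stood in genes of both ends. The run of Rps2 ends where the table's entry ends, and the annotated start need not be the one used in these cells.

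Of the 86 members, 63 had a promoter entry. A run of 8 or more C or T on the gene's strand, within 50 bases of the start, was present in 50 of the 63 (79.4%) and in 35.7% of all 27025 promoters. It was present in 26 of 30 members at least 1.5-fold lower at 12 h (86.7%) and in 22 of 29 less than 1.5-fold lower (75.9%). The motif CCGGAAG, searched on both strands of the 300 bases, was found in 39.7% of members and 9.12% of all promoters. CCATCTT, searched the same way, was found in 14.3% and 6.48%. Among the members lower at 12 h the shares were 43.3% and 13.3%, and among the others 37.9% and 17.2%. The run and both motifs are descriptions of these windows. Of these features the run and CCGGAAG marked the family as a whole more than its split at 12 h.

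The most abundant members held much the same part of the family in each treated library. The 6 most abundant members, by mean CPM of the treated libraries, held 15.8%, 15.8% and 15.1% of the family's counts at 6, 12 and 24 h. Rplp1, an acidic stalk protein, came first with 6055.5, 4213.3 and 5652.2 CPM. Rps12 had 4915.3, 2633.8 and 3830.0 CPM and was 1.87-fold lower at 12 h than at 6 h (1.80 to 1.93). Rpl26 had 3515.7, 2460.3 and 3866.0 CPM, and Rpl23, which can bind Mdm2, had 3614.6, 2266.2 and 3690.5 CPM. Rps27a, which is made as a fusion with ubiquitin, had 3294.8, 2485.8 and 3660.0 CPM. All of these but Rps2 were lowest at 12 h. Drop-seq reads lie near the 3′ ends of mRNAs, and these values are not divided by length.

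Dividing each member by the family's counts separates members from the common shift. On this scale 29 of 79 members had a higher share of the family at 12 h than at 6 h and 36 a lower one, by intervals that exclude 1. On the CPM scale 69 ratios had an interval below 1 and 5 above 1. Such numbers rise with the counts per gene, and none was taken for other genes. Rpl35a stood at 0.390 times its 6 h share of the family and Rpl4 at 1.77 times. The make-up of the family differed by 10.6% of its counts between 12 h and 6 h, by 8.39% between 24 h and 12 h and by 5.31% between 24 h and 6 h. The 6 h and 24 h libraries were thus nearest to each other in make-up as well as in level.

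The stalk proteins summed to 1.06%, 0.717% and 0.986% of counts at 6, 12 and 24 h. Rplp0, the stalk's base, had 2023.6, 1587.9 and 2089.4 CPM, and Rplp2 had 2527.0, 1366.4 and 2119.7 CPM. Rplp0 was 1.27-fold lower at 12 h than at 6 h (1.21 to 1.34), Rplp1 1.44-fold (1.39 to 1.48) and Rplp2 1.85-fold (1.76 to 1.94), and these intervals do not overlap. Rpl5 and Rpl11, which carry the 5S RNA and bind Mdm2 when ribosome assembly is disturbed, also parted. Rpl5 had 2383.2, 1270.8 and 2290.0 CPM and was 1.88-fold lower at 12 h (1.78 to 1.97), while Rpl11 had 1564.0, 1456.2 and 1811.0 CPM and was 1.07-fold lower (1.01 to 1.14). Rps6, the substrate of the S6 kinases, had 915.5, 601.1 and 882.4 CPM. Rps19, the first gene found mutated in Diamond-Blackfan anemia, had 1606.3, 1233.7 and 1718.9 CPM, and Rps14 had 2812.0, 2416.7 and 3039.7 CPM.

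Other members were named by their ratios over the later steps or their counts at 0 h, and their courses differed. Rpl10a, the protein of the L1 stalk, had 833.3, 450.1 and 1032.7 CPM and was 2.29-fold higher at 24 h than at 12 h (2.19 to 2.40). Rpl41, the smallest ribosomal protein, had 2943.0, 1422.3 and 2291.8 CPM, so that at 24 h it stood at 0.779 times its 6 h value (0.745 to 0.814). Rps12 had the same ratio of 24 h to 6 h, 0.779 (0.753 to 0.806). Rps20, by contrast, had 1942.7, 1953.9 and 2377.3 CPM, with no dip and a ratio of 24 h to 6 h of 1.22 (1.16 to 1.29). Rpl13a had 2605.3, 2293.3 and 2981.7 CPM, and Rpl17 had 2199.6, 1413.0 and 1967.0 CPM.

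Paralogues of one protein differed in level, and in 2 of the 4 pairs given here also in the size of the dip beyond counting error. Rps27 had 621.5, 424.9 and 660.7 CPM, and its paralogue Rps27l, a p53 target, had 1028.5, 908.8 and 972.4 CPM. Rps27 was 1.46-fold lower at 12 h than at 6 h (1.32 to 1.61) and Rps27l 1.13-fold (1.05 to 1.22), and the intervals do not overlap. Rpl22 had 1483.1, 1055.7 and 1360.1 CPM against 877.0, 394.3 and 707.6 CPM for Rpl22l1. Of this pair Rpl22l1 had the deeper dip, 2.22-fold (2.04 to 2.42) against 1.40-fold (1.32 to 1.5). Rpl7 had 1311.0, 1022.9 and 1312.1 CPM and was 1.28-fold lower at 12 h than at 6 h (1.20 to 1.37). Rpl7l1 had 157.9, 142.6 and 104.3 CPM, 1.11-fold lower at 12 h with an interval of 0.909 to 1.34 that overlaps that of Rpl7. Rpl36a was 1.42-fold lower (1.32 to 1.51) and its paralogue Rpl36al, outside the name rule, 1.71-fold (1.49 to 1.96), intervals that also overlap. Rpl7l1 was the member with the lowest ratio of 24 h to 6 h, 1.51-fold lower (1.24 to 1.84), which was below 1.5-fold among barcodes with 1000 or more counts (0.702 times, 0.559 to 0.890).

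The tissue-restricted paralogues were at or near 0 while their partners were abundant. Rpl39, which lines the peptide tunnel, had 1530.6, 762.5 and 1449.5 CPM, and its testis paralogue Rpl39l was listed at 0, 0.176 and 0 CPM. Rpl10 had 1183.9, 900.8 and 1406.5 CPM, and its testis paralogue Rpl10l had at most 0.811 CPM. Rpl3l, known from muscle, had at most 1.28 CPM. Rps4x had 2482.0, 2153.3 and 2787.6 CPM, and Rps4y2 had at most 0.527 CPM. Of the 7 members that did not reach 100 CPM in a treated library, Rpl24 was the exception as a core protein. It had 14.1, 15.5 and 14.1 CPM and 9 counts (84.2 CPM) at 0 h, and 91.5% of its 3′ 51-base stretches occur in transcripts of other genes. Members at high levels had such shares as well (100% in Rpl10), and the part of shared sequence in the level of Rpl24 was not tested. Rps3a2 and Rps3a3 had at most 16.7 and 11.6 CPM.

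Coding length went with the size of the dip. It was one of 8 gene features set beside the ratio of 12 h over 6 h after that ratio had been seen, and it is given as a description across genes, which are not independent replicates and share libraries. Over the 79 members the log2 ratio correlated with coding length at r = 0.46 (Pearson) and rho = 0.45 (Spearman). Every r given for coding length uses the log2 of that length. For the small subunit (n = 32) these were 0.35 and 0.32, and for the large subunit (n = 47) 0.54 and 0.53. The rho of the other features was 0.36 for the number of exons, 0.24 for the CPM at 24 h, 0.19 for transcript length, 0.00 for 3′ UTR length and -0.04 for last exon length. It was -0.04 for the percentage of 3′ sequence shared with other genes and -0.10 for the number of genes sharing it. Coding length and exon number therefore had the highest values of the 8.

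In bins of coding length, the median log2 ratio was -0.72 for 10 members under 300 nt, -0.73 for 28 members of 300 to under 450 nt and -0.41 for 18 members of 450 to under 600 nt. It was -0.38 for 20 members of 600 to under 900 nt and 0.32 for the 3 longest, Rplp0, Rpl3 and Rpl4, a bin of too few genes to read by itself. Of the 28 members of 300 to under 450 nt, 18 were at least 1.5-fold lower, against 25 of 171 other genes of that length. The medians of other genes at 100 CPM or more were -0.11, 0.05, 0.12, 0.10 and 0.18 from the shortest to the longest bin. Exceptions stood on both sides: Rps20 (357 nt) and Rps27l (252 nt) hardly dipped, and Rpl5 (891 nt) did. For 2062 other genes at the same level r and rho were both 0.13, and in barcodes with 1000 or more counts 0.03 and 0.02, where the members kept 0.46 and 0.45. In barcodes under 500 counts 2049 other genes had 0.35 and 0.33, close to the 0.43 and 0.42 of the members. From 12 h to 24 h the log2 ratio of the members had an r of -0.38 and a rho of -0.39 with coding length, and that of the other genes -0.27 and -0.30. For 70 respiratory chain and ATP synthase genes, another group of short abundant mRNAs, r was 0.32 and rho 0.50, so a relation of this size was present in that group too. The relation was thus not shown to be particular to the family. No cause of it was tested.

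**Figure D2:**
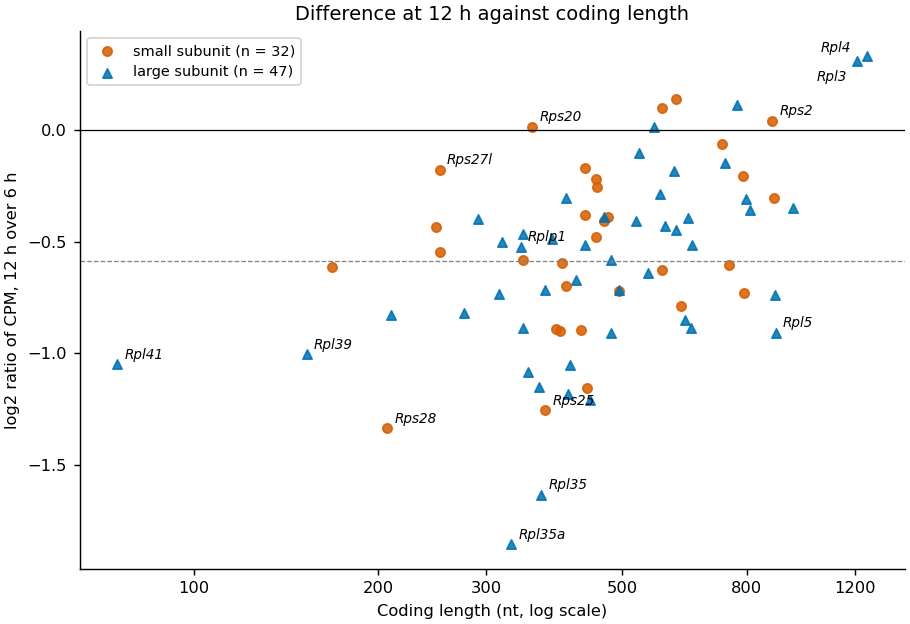
The log2 ratio of CPM, 12 h over 6 h, against coding length (log axis) for 79 ribosomal protein genes, with small subunit genes as circles and large subunit genes as triangles. The solid line marks no difference and the dashed line 1.5-fold lower; the longest genes Rpl3 and Rpl4 lie above 0, and Rpl35a and Rpl35 lowest.

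Many ribosomal protein genes have processed copies in the genome, so that reads could be split between rows. In the last 600 bases of their transcripts, 44 of the 79 members shared over 50% of 51-base stretches with other genes, 26 shared up to 50% and 9 shared none. Their median log2 ratios, 12 h over 6 h, were -0.59, -0.45 and -0.60, so the members without shared stretches dipped as well. Of 57 rows of other genes that share at least 10% of a member's stretches, 17 had a mean of 20 CPM or more. Of these 17, 12 were at least 1.5-fold lower at 12 h than at 6 h and 0 higher, with a median log2 ratio of -1.05. With any shared stretch counted, 46 rows were measured, of which 15 were lower and 5 higher (median -0.12). The rows named here were chosen after their values were seen. Gm6472, which shares 84.9% of the stretches of Rps7, had 202.9, 58.2 and 169.3 CPM. Wdr89 (38.7% of Rplp2) had 319.7, 97.8 and 226.6 CPM, Gm10076 (41.5% of Rpl41) had 299.2, 99.3 and 205.0 CPM and Gm10275 (17.6% of Rpl12) had 154.1, 62.1 and 120.2 CPM. In 3 of the 17 the 12 h value lay above that at 6 h: Gm2000 (60.9% of Rpl35) had 132.3, 173.2 and 117.7 CPM, BC004004 (47.5% of Rpl21) had 56.5, 82.3 and 83.0 CPM and Gm10288 (53.5% of Rpl11) had 20.5, 23.2 and 29.7 CPM. How reads with several matches were counted is not stated in the sources used here.

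Shallow and deep barcodes differed in their ribosomal protein share at 6 h and 24 h and hardly at 12 h. Barcodes under 500 counts (shallow) gave 19.3% at 6 h (524 barcodes), 10.9% at 12 h (158) and 17.9% at 24 h (325). Those with 1000 or more counts (deep) gave 14.5% (80 barcodes), 11.1% (865) and 15.5% (933). The ratio of shallow to deep was 1.33 at 6 h (1.32 to 1.35), 0.977 at 12 h (0.951 to 1.00) and 1.15 at 24 h (1.14 to 1.17). In the library labelled 0 h it was 1.08, with an interval that included 1 (0.784 to 1.51). The depth make-up of the libraries differed: deep barcodes held 74.1% of counts at 6 h, and 97.8% and 97.6% at 12 h and 24 h.

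**Figure D3:**
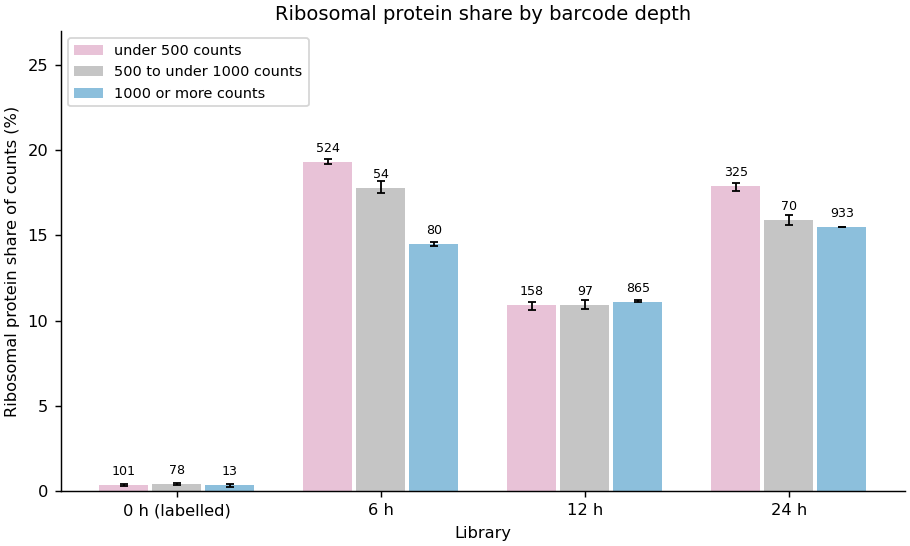
Share of counts in ribosomal protein genes (percent) by library and by counts per barcode, summed over the barcodes of each class, with exact binomial 95% intervals and the number of barcodes above each bar. At every depth the 12 h bars lie near 11% and below the 6 h and 24 h bars.

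The lower share at 12 h was present in every class of depth, and its size was not the same. Within deep barcodes the family stood at 0.767 times its 6 h share (0.762 to 0.773), within those of 500 to under 1000 counts at 0.612 times (0.592 to 0.633) and within shallow barcodes at 0.562 times (0.546 to 0.578). At 24 h against 12 h the ratios were 1.39 (1.39 to 1.40), 1.46 (1.41 to 1.5) and 1.64 (1.59 to 1.69) in the same order. Among deep barcodes 29 members were at least 1.5-fold lower at 12 h than at 6 h, against 10.8% of 2271 genes. All 29 were among the 36 found with all barcodes. Deep barcodes hold most of the counts of each treated library, so this overlap was largely built in. Against both 6 h and 24 h, 25 members dipped in deep barcodes, and 2.66% of 2328 genes did. Rpl35a had 758.6, 221.9 and 661.1 CPM in deep barcodes and Rpl35 1520.7, 545.2 and 1565.3 CPM. Rpl4 had 2579.0, 3508.4 and 2953.1 CPM there.

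Between shallow and deep barcodes of the 6 h library, 5 of 79 members differed by 1.5-fold or more, all higher in shallow barcodes, near the 6.24% of all 1874 genes that were higher, while 19.7% of all genes and 0 members were lower. For 67 members the interval lay above 1 and for 0 below, a count not made for other genes. The median log2 ratio of shallow to deep was 0.41 over the members and -0.09 over 1794 other genes. The members' shift was thus small and shared among them. Rps12, with 6856.4 CPM in shallow and 4295.5 CPM in deep barcodes, stood at 1.60-fold (1.49 to 1.71), as did Rpl27 with 2646.4 and 1654.1 CPM (1.43 to 1.79). Rpl26 (4794.0 and 3109.0 CPM), Rps13 (1490.5 and 973.4 CPM) and Rpl22 (2007.6 and 1325.0 CPM) were the others. At the low end Rpl18 (821.3 and 860.8 CPM, ratio 0.954, 0.783 to 1.16), Rps15 (ratio 1.06) and Rpl3 (ratio 1.08) had intervals that included 1, and Rpl5 stood at 1.13 (1.01 to 1.26). At 12 h, 0 members were higher in shallow barcodes by 1.5-fold and 4 lower, Rpl27, Rpl29, Rpl34 and Rps29, on 9 to 29 shallow counts each, where 6.41% and 16% of all genes were. At 24 h no member differed by that much, against 2.09% higher and 12.3% lower among all genes. Malat1 took 0.283% of counts in shallow and 1.09% in deep barcodes at 6 h, and its part in the difference was not tested.

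Across single deep barcodes the share had a median of 14.8% at 6 h (lowest 2.27%, highest 37.6%), 11.0% at 12 h (2.99% to 24.7%) and 15.4% at 24 h (5.83% to 22.3%). Its SD over barcodes was 5.42, 1.76 and 1.97 percentage points, where counting alone would give 0.696, 0.512 and 0.584. The share of the small and that of the large subunit went together from barcode to barcode, with Pearson's r of 0.95 over 80, 0.80 over 865 and 0.78 over 933 barcodes, which share a library and depth range and are not replicates. Signs of RNA quality also went with the share from barcode to barcode. Spearman's rho of the family's share with that of Malat1 was -0.53, -0.19 and -0.08 at 6, 12 and 24 h, and with that of mitochondrial genes -0.21, -0.26 and -0.29. Their part in the spread was not tested. The 12 h barcodes as a whole lay lower, and no single barcode held more than 6.03% of the counts of any of the 79 members at 6 h, or more than 1.11% at 12 h.

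**Figure D4:**
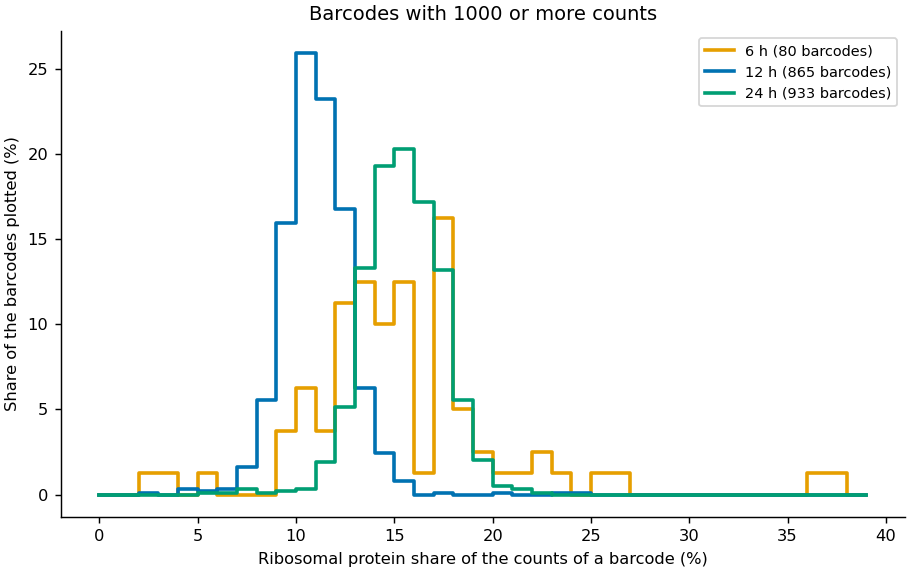
Distribution of the ribosomal protein share (percent of a barcode's counts, bins of 1 percentage point) over barcodes with 1000 or more counts, as a percentage of the barcodes of each treated library. The 12 h curve peaks between 10% and 12%, the 24 h curve between 14% and 17%, and the 6 h curve, from 80 barcodes, is broad.

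In the library labelled 0 h each member's level was low. All 79 members at 100 CPM in a treated library were at least 1.5-fold lower there than in each treated library. Of all genes tested, which could pass the floor through either library, 53.3%, 56% and 53.5% were. The 79 passed it through the treated libraries, where they are high, so their count was partly built in. Rpl24, which did not pass it, was higher at 0 h, with 84.2 CPM against 14.1, 15.5 and 14.1 CPM. Rps19 had 17 counts (159.1 CPM), Rpl13a 13 (121.7 CPM), and Rpl17 and Rps14 10 each (93.6 CPM). Rps3a1 and Rpl12 had no count, and the intervals of their ratios of 6 h over 0 h began at 59.4 and 64.4. The family's make-up could be set beside that of the treated libraries only on 379 counts. For 11 of the 86 members the Poisson interval of the 0 h count left out the count that the mean treated make-up would give. Rps19 had 17 counts where 4.1 would be given, Rps12 3 where 10.2, and Rpl24 9 where 0.0. The others were Rpl7l1, Rpl10a, Rpl12, Rps3a1, Rps3a3, Rps26, Rps27 and Rps28. Some of 86 such intervals would leave out the value by counting alone, and some of the 11 rest on few counts (Rps3a3 on 1, Rps27 on 5). The marker and Malat1 values given above stand beside these differences, and their part in them was not tested.

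Most ribosomal proteins measured outside the name rule followed the family, with Gnb2l1 as the exception. The lists of other genes of protein synthesis had median log2 ratios, 12 h over 6 h, between the -0.52 of the members and the 0.19 of all genes. Fau, which encodes Rps30 as a fusion, had 1678.2, 960.3 and 1587.2 CPM. Rpl36al, a paralogue of Rpl36a, had 342.8, 200.2 and 262.6 CPM. Gnb2l1, the scaffold protein RACK1 on the small subunit, had 3391.1, 3186.6 and 3681.6 CPM and hardly differed (0.940 times, 0.902 to 0.979). Of 4 such genes measured, 3 were at least 1.5-fold lower at 12 h. Of 25 rows with ribosomal pseudogene names 4 were measured and 3 were lower, among them Rpsa-ps10 with 689.5, 379.2 and 521.5 CPM.

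The lists were counted among genes with a mean of 20 CPM or more. Over all 6379 such genes, 8.5% were at least 1.5-fold lower and 24.1% higher at 12 h than at 6 h (median log2 ratio 0.19), and 6.57% were lower and 3.07% higher at 24 h than at 12 h (median -0.13). Among 25 other TOP mRNAs, 4 (16.0%) were lower and 2 (8.0%) higher at 12 h, with a median log2 ratio of -0.09. Tpt1, a TOP mRNA that encodes a translationally controlled protein, had 2932.7, 1699.7 and 2888.6 CPM, the course of the family, and Nap1l1, a histone chaperone, had 1965.9, 941.8 and 1157.1 CPM. The elongation factor Eef1a1 had 2692.6, 2462.4 and 2843.3 CPM and stayed near level, and Eef2 had 1280.2, 1932.7 and 1880.7 CPM, higher at 12 h by 1.51-fold (1.41 to 1.61). Eif3l, a subunit of an initiation factor, had 109.1, 205.5 and 170.4 CPM. Of 41 ribosome assembly genes, 10 (24.4%) were lower and 2 (4.88%) higher at 12 h (median -0.32). From 12 h to 24 h, 1 was lower and 0 higher, with a median of -0.16, near that of all genes. Nop56, a protein of the nucleolar particles that modify ribosomal RNA, had 458.4, 255.3 and 287.9 CPM.

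Of 9 measured regulators of ribosomal protein synthesis, 0 were lower and 1, Rheb, which activates mTOR, was higher at 12 h (86.0, 130.6 and 90.5 CPM). These are 0% and 11.1% of the 9, against the 8.5% and 24.1% of all genes. For the 73 mitochondrial ribosomal protein genes the median was 0.00, and 8 (11.0%) were lower and 4 (5.48%) higher. Mrpl23 (56.5, 13.7 and 73.5 CPM) and Mrps36 (42.4, 9.85 and 29.5 CPM) dipped most among them. Respiratory chain and ATP synthase genes had a median of 0.04, with 6 lower (8.0%) and 7 higher (9.33%) of 75, so the share lower lay near that of all genes in both lists. In 3 of these genes the dip was larger than in any of the 79 ribosomal protein genes: Atp5l had 368.5, 32.5 and 397.8 CPM, Atp5g2 102.7, 15.5 and 128.4 CPM, and Ndufb4 107.9, 27.8 and 88.2 CPM. These lists are described by their counts and medians, and no difference between them and the family was tested.

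**Figure D5:**
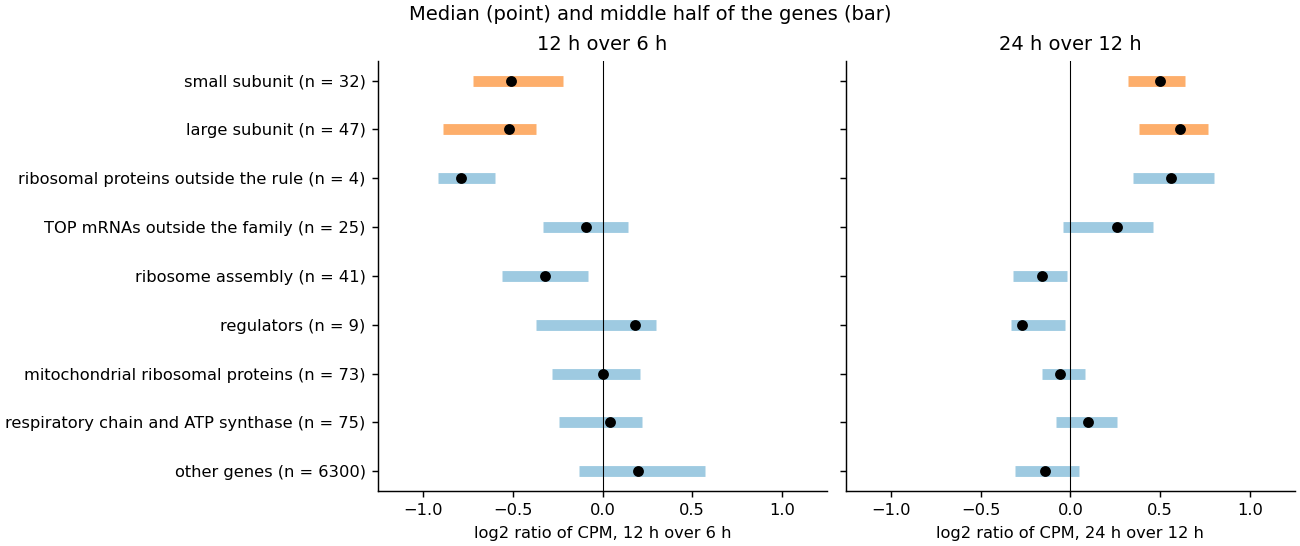
Log2 ratio of CPM, 12 h over 6 h (left) and 24 h over 12 h (right), for each gene list with its number of measured genes. Points are medians and bars span the first to the third quartile of the genes; both subunits lie below 0 on the left and above 0 on the right, where the ribosome assembly genes lie below 0 in both.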

How the data were processed

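The deposited values are raw counts (whole numbers) for each gene in each barcode, per the values of the file and its column names, which give each barcode's library. Some steps could not be stated (the counter, annotation, strand setting, barcode filter and any UMI collapsing): not given in the sources used here. The aligner was STAR 2.5.3a and the build mm10, per the submitters' processing notes. All 3298 barcodes had at least 200 genes and under 5% mitochondrial counts, and all were kept. Doublets were not called here.

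The counts of each library were added up and expressed as CPM. Ratios of CPM have no pseudocount and carry exact conditional binomial 95% intervals; those of CPM are Poisson and those of shares Clopper-Pearson, all for counting error only. No test was made, since each time point had 1 library. Genes that reached 100 CPM in 1 of the libraries compared were counted at 1.5-fold and 2-fold, and lists by medians over genes with a mean of 20 CPM or more in the treated libraries and a count in each. A gene without a count could be present at up to 34.5, 4.74, 0.649 and 0.598 CPM in time order, the upper ends of the Poisson intervals.

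The members and lists were chosen with earlier results of these data known. Named members were the 6 most abundant, the 10 lowest and 6 highest by 12 h over 6 h, the 4 lowest and 4 highest by 24 h over 12 h, by 24 h over 6 h and by shallow over deep barcodes at 6 h, those with 10 or more counts at 0 h, the stalk genes, paralogue pairs and some members fixed by name. Of other lists up to 4 genes by 12 h over 6 h could be named, and Eef1a1, Eef2, Tpt1, Fau, Rack1 and Malat1, and some genes these rules name are not reported here. Positions, coding lengths and shared 51-base stretches come from GENCODE M21 (83 of 86 members), by the shortest principal transcript of the best support level, a choice made after seeing odd lengths. Start windows come from RefSeq, GRCm38.p6, the first entry per gene. The fixed rule also named proteins of a paralogue pair, which are not used here.

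Alternatives were TMM (edgeR) and DESeq2 size factors, totals without mitochondrial genes or the members, stricter barcode filters, equal weight per barcode, other floors, folds, pseudocounts and depth limits, wider member lists and, chosen after seeing the data, barcodes not ending in N. The method was run on simulated Poisson counts of genes at 100 CPM or more. For 12 h over 6 h, all of 100 genes made 2-fold higher and 100 made 2-fold lower were found among 1874. Of 1674 unchanged genes 1 was called. The simulated counts held counting error only, without spread between barcodes or libraries. They therefore check the calculation and do not show how the calls would hold in replicates. Analyses ran in R 4.3.3 (DESeq2 1.42.0, edgeR 4.0.16) and Python 3.11.15 (scipy 1.17.1, pandas 2.3.3, numpy 2.4.6, matplotlib 3.10.9).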

Additional observations from a re-analysis of the deposited data

How the results depend on the processing

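The lower family share at 12 h kept its direction under every alternative run. The ratio of 12 h to 6 h (0.709) was 0.653 with TMM, 0.629 with DESeq2 size factors, 0.701 without mitochondrial genes in the totals, 0.673 without the members in the totals, 0.766 with at least 500 genes per barcode, 0.767 with 1000 or more counts, 0.703 without barcodes 1 base from another and 0.587 with equal weight per barcode. The ratio of 24 h to 12 h (1.40) was, under the same settings, 1.52, 1.53, 1.39 and 1.47 in the first 4, and 1.41 and 1.46 in the last 2. The ratio of 24 h to 6 h (0.990) turned to 1.07 with at least 500 genes and with 1000 or more counts per barcode, and was 0.961 with DESeq2, 0.974 without mitochondrial genes and 0.856 with equal weight; the cause was not tested. The 36 members lower at 12 h than at 6 h became 59 with equal weight and 12 at 2-fold. The 35 higher at 24 h than at 12 h became 8 at 2-fold, and the 28 dips became 43 with DESeq2 and 7 at 2-fold. Shares of all genes were not counted with equal weight or with DESeq2. The 1 member lower at 24 h than at 6 h became 5 with equal weight and 0 with at least 500 genes, 1000 or more counts, no barcodes ending in N, 2-fold, a floor of 200 CPM or pseudocounts of 10 and 50. With ribosomal proteins outside the name rule, Fau and Gnb2l1 among them, the shares were 16.2%, 11.5% and 16.1% at 6, 12 and 24 h, and with pseudogene rows 15.8%, 11.2% and 15.6%. Shallow over deep at 6 h (1.33) was 1.36 for under 400 against 2000 or more counts, and the library labelled 0 h gives no such value, having no barcode that deep. Of the values of single genes, 756 stayed within their counting interval and 432 moved beyond it. The median log2 ratio of all genes, 12 h over 6 h, went from 0.19 to 0.07 with TMM and 0.02 with DESeq2. No paired analysis was possible because each time point had 1 library. At 0 h the 379 counts of the family limit what can be seen of single members.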
